A study of Arabidopsis thaliana with 9 samples.

Results

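Glycosyl hydrolase family 9 (GH9) holds the plant endo-β-1,4-glucanases, enzymes that cut β-1,4-linked glucan chains inside the chain. In the leaf arrays described here the family was read by 15 probe sets, each paired with 1 gene whose symbol starts with GH9 in the platform annotation, of 22810 probe sets in all and 13513 paired with a single gene. These were GH9A3 and GH9A4 of class A, 10 genes of class B (GH9B5, GH9B6, GH9B7, GH9B8, GH9B11, GH9B12, GH9B13, GH9B16, GH9B17 and GH9B18) and GH9C1, GH9C2 and GH9C3 of class C. Of 21 RefSeq genes with such a symbol, 4 more shared 2 probe sets (GH9B9 with GH9B10, and GH9B14 with GH9B15), and GH9A1 and GH9B1 were not analysed here.

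The arrays came from leaves of Arabidopsis thaliana at growth stage 1.14, with 3 Affymetrix ATH1 arrays for each of 3 genotypes. The calpain overexpressing plants (32OE) held a transgene labelled ADEK1 calpain in Col-0 plants whose DEK1 locus, At1g55350, had been knocked out by T-DNA. The calpain null plants (32null) carried the same knock out and a transgene labelled ADEK1 calpian null, also in Col-0. The wild type was Col-0 with no transgene listed. All plants had 3 days of cold, 7 days on plates and then growth in soil at 21 °C under short days, with 6 plants in a pot. The labels name no promoter for the transgenes, no number of independent lines and no meaning of null, and do not say whether replicates came from separate plants, and a p-value here therefore covers only sample-to-sample spread, some of which may be technical. DEK1 is a plant membrane protein with a calpain protease domain, and calpains are cysteine proteases activated by calcium. Its own transcript was not analysed here, so the genotype labels were not checked against it.

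Growing plant cells are enclosed by cellulose microfibrils tethered by xyloglucan and other glycans, and enzymes that cut, rejoin or loosen these glycans are made as the wall extends. GH9 proteins fall into 3 structural classes. Class A proteins are anchored in membranes, and their best known member, KORRIGAN1 (GH9A1), is needed for cellulose synthesis. Class B proteins are secreted enzymes with a catalytic domain, and class C proteins carry in addition a carbohydrate-binding module at the C terminus.

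Values are MAS5 signals, linear intensities that the authors' software computes per probe set. The signal of 1 probe set says nothing about its level relative to another, so each gene is compared with itself between groups. A gene was tested when its signal reached 17.6, the 40th percentile of the table, on at least 3 arrays. Changes are given as log2 fold changes of signal plus 3.63, a constant that understates the change of dim genes. A gene was called when limma's p, adjusted by Benjamini-Hochberg over all 14151 probe sets tested, was under 0.05. In whole-leaf RNA a change in the share of cells that express a gene and a change in RNA per cell cannot be told apart.

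Median signals lay between 33.1 and 35.7 over the 9 arrays. Of the green leaf markers fixed for this work, 4 were matched by symbol to a single-gene probe set, and their signals summed to 15126 to 15553 on calpain overexpressing arrays, 15589 to 19432 on calpain null arrays and 13642 to 16440 on wild-type arrays. RCA, the Rubisco activase gene, averaged 4926 in calpain overexpressing, 5618 in calpain null and 5277 in wild-type leaves. With no arrays of another tissue to compare, these values do not check the leaf label. The root gene PYK10 ranged from 9.96 to 112 on calpain overexpressing, 15.97 to 63.9 on calpain null and 15.2 to 43.3 on wild-type arrays. No xylem marker was matched by symbol to a single-gene probe set. The 2 markers of dividing cells, AUR1 and AUR2, summed to 90.3 to 194 on calpain overexpressing, 155 to 195 on calpain null and 149 to 237 on wild-type arrays. The epidermal receptor kinase gene CR4 ranged from 24.2 to 40.4 on calpain overexpressing, 29.0 to 47.8 on calpain null and 28.6 to 44.4 on wild-type arrays. The 4 stomatal lineage genes summed to 533 to 585 on calpain overexpressing, 467 to 556 on calpain null and 552 to 611 on wild-type arrays. No gene of these lists was called in any comparison, and the ranges of the calpain overexpressing and wild-type arrays overlapped in each list. Of 14151 probe sets, 228 were called against wild type in the calpain overexpressing line and fewer in the other comparisons. No call among so few genes is thus near the background. A sum follows its brightest genes. LHCB4.3 of the green leaf list averaged 128 in calpain overexpressing, 65.0 in calpain null and 69.6 in wild-type leaves. Its log2 fold change against wild type was 0.88 (adjusted p = 0.0753 by limma), against -0.10 for RCA and 0.07 for LHCB4.1 and LHCB4.2.

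Of the 15 GH9 genes, 6 passed the filter and 9 did not. GH9A4, GH9B6, GH9B11, GH9B16, GH9B17, GH9C1 and GH9C3 stayed far below the filter signal on every array, their highest value being 7.51 for GH9C1 on a wild-type array. GH9A3, also called KORRIGAN3, reached it on 2 of the 3 arrays required, with 16.8, 13.8 and 12.2 on calpain overexpressing, 12.4, 15.1 and 17.9 on calpain null and 18.2, 15.03 and 16.3 on wild-type arrays. These 3 groups overlapped.

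GH9B12 also missed the filter, but its arrays were not alike. It had 12.0, 24.5 and 53.3 on calpain overexpressing, 14.6, 14.9 and 10.4 on calpain null and 10.3, 4.93 and 10.3 on wild-type arrays. Every calpain overexpressing array was above every wild-type array, while the calpain overexpressing and calpain null arrays overlapped. In a fit of all 22746 probe sets other than controls, with no filter, its log2 fold change for calpain overexpressing minus wild type was 1.30 (95% confidence interval 0.36 to 2.25, adjusted p = 0.226), and it was not called.

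Several members are neighbours on a chromosome. GH9B16, GH9B17 and GH9B18 follow each other on the chromosome with 0 genes between them in the RefSeq table. GH9B16 and GH9B17 did not exceed 2.43 and 6.82 on any array, and GH9B18 reached the filter on all 9. GH9B9, GH9B10, GH9B11 and GH9B12 are likewise adjacent, and GH9B11 did not exceed 1.65. The probe set shared by GH9B9 and GH9B10 did not exceed 3.82, and the one shared by GH9B14 and GH9B15 reached 16.5 on 1 calpain overexpressing array. A shared probe set cannot tell its genes apart.

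**Figure D1:**
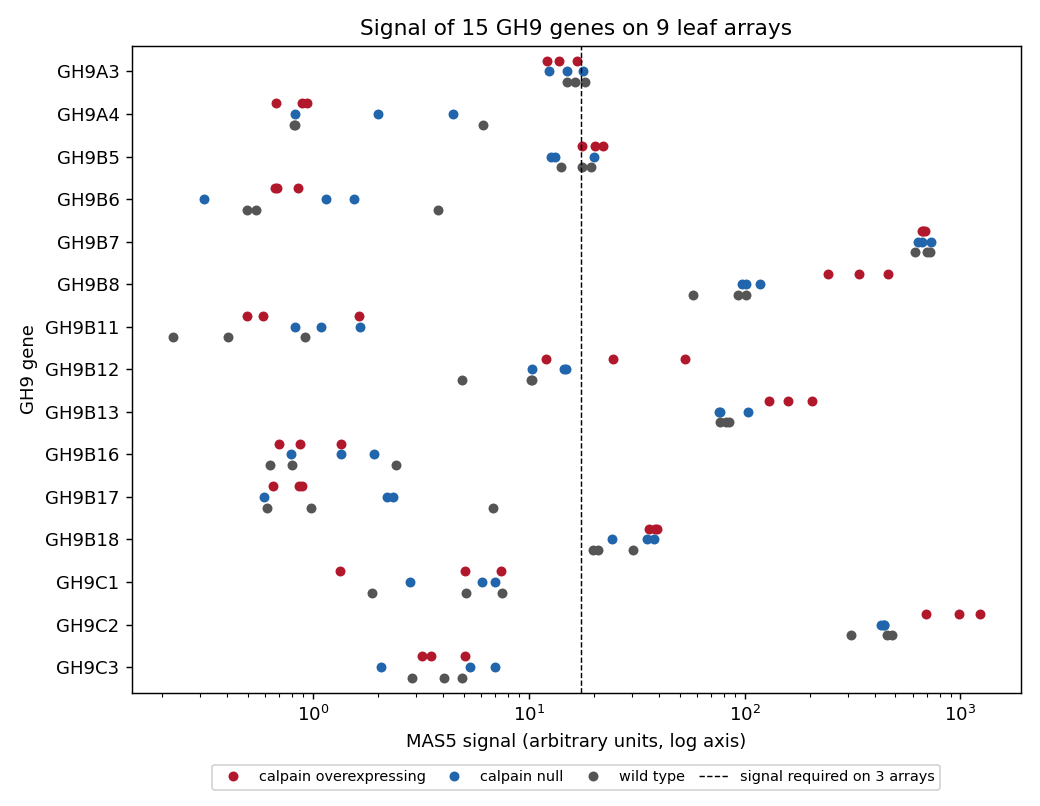
MAS5 signals (log axis, arbitrary units) of the 15 GH9 genes, 1 point per array, coloured by genotype, with the dashed line at the filter signal of 17.6. GH9B8, GH9B13 and GH9C2 have all 3 calpain overexpressing arrays to the right of both other groups, GH9B7 overlaps in all groups, and 9 genes lie mostly or wholly left of the line.

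Set against wild type, the calpain overexpressing leaves show which endoglucanase transcripts stand apart in that line. Of the 6 GH9 genes tested, 3 were called higher, the class B genes GH9B8 and GH9B13 and the class C gene GH9C2, and none lower. Over all probe sets, 0.806% were called higher (114 of 14151). As many, 114 of 14151, were called lower, so none lower among 6 genes is near the background. The median log2 fold change was 0.79 over the 6 genes and 0.01 over all probe sets tested.

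GH9B8 (AT2G32990), a secreted endoglucanase by its class, had signals of 245, 340 and 462 on calpain overexpressing arrays, 97.0, 118 and 101 on calpain null arrays and 57.5, 101 and 93.7 on wild-type arrays. The lowest calpain overexpressing array was above the highest array of either other group. GH9B8 averaged 349 ± 109 in calpain overexpressing, 106 ± 11.4 in calpain null and 84.1 ± 23.3 in wild-type leaves (SD, n = 3 each). Against wild type the log2 fold change was 2.00 (SE 0.24, 95% confidence interval 1.48 to 2.51, adjusted p = 0.00273 by limma), about 4.00-fold, and GH9B8 ranked 13 by p among all probe sets tested.

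GH9C2 (AT1G64390) encodes a class C enzyme and has been linked by mutant studies to the crystallinity of wall cellulose. It had 696, 983 and 1233 on calpain overexpressing, 440, 445 and 428 on calpain null and 311, 481 and 456 on wild-type arrays. The calpain overexpressing arrays again lay wholly above both other groups, and the calpain null arrays fell within the range of the wild type. GH9C2 averaged 971 ± 269 in calpain overexpressing, 438 ± 8.31 in calpain null and 416 ± 91.6 in wild-type leaves (SD, n = 3 each). Against wild type the log2 fold change was 1.20 (SE 0.20, interval 0.76 to 1.64, adjusted p = 0.0172), a 2.30-fold difference.

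GH9B13 (AT4G02290), of class B, had 130, 160 and 205 on calpain overexpressing, 76.0, 104 and 76.6 on calpain null and 76.9, 84.7 and 82.0 on wild-type arrays. There too no calpain overexpressing array reached down to the others. GH9B13 averaged 165 ± 37.9 in calpain overexpressing, 85.6 ± 16.2 in calpain null and 81.2 ± 3.96 in wild-type leaves (SD, n = 3 each). Its log2 fold change against wild type was 0.97 (SE 0.17, interval 0.59 to 1.35, adjusted p = 0.0243), a 1.95-fold difference.

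**Figure D2:**
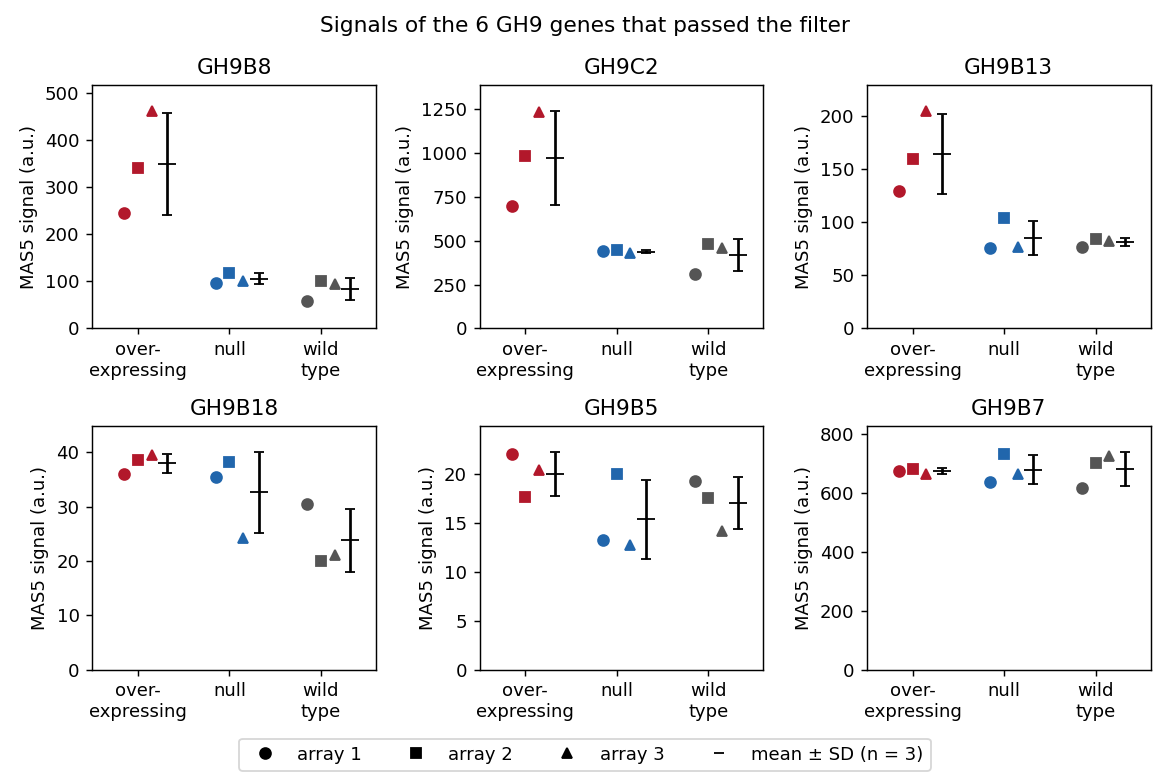
MAS5 signals (linear axes starting at 0, arbitrary units) of the 6 GH9 genes that passed the filter, by genotype, with a marker shape for each array number and bars for mean ± SD (n = 3). GH9B8, GH9C2 and GH9B13 are higher on every calpain overexpressing array than on any other array, and within that group array 1 is the lowest and array 3 the highest for all 3 genes.

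The other 3 genes tested were not called. GH9B18 (AT4G39010), of class B, had 36.0, 38.5 and 39.4 on calpain overexpressing, 35.5, 38.2 and 24.2 on calpain null and 30.5, 19.95 and 21.0 on wild-type arrays. Its calpain overexpressing arrays lay above all wild-type arrays but not above the calpain null ones. The log2 fold change against wild type was 0.62 (interval 0.17 to 1.07, adjusted p = 0.152). With GH9B18, 4 of the 6 genes had every calpain overexpressing array above every wild-type array, against 12.1% of all probe sets tested.

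GH9B5 (AT1G19940), of class B, had signals close to the filter: 22.0, 17.6 and 20.4 on calpain overexpressing, 13.3, 20.1 and 12.8 on calpain null and 19.4, 17.6 and 14.2 on wild-type arrays. All groups overlapped, and the log2 fold change against wild type was 0.20 (interval -0.31 to 0.71, adjusted p = 0.685). GH9B7 (AT1G75680), of class B, had 674, 683 and 664 on calpain overexpressing, 638, 733 and 665 on calpain null and 617, 702 and 725 on wild-type arrays. Its highest and lowest values over all 9 arrays differed by 1.19-fold. The log2 fold change of GH9B7 against wild type was -0.01, with an interval from -0.23 to 0.20 (adjusted p = 0.959).

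The 3 calls were not kept equally often when a setting was changed or an array left out. GH9B8 was called in all 20 alternatives run, with log2 fold changes from 1.76 to 2.23 and adjusted p up to 0.0215. GH9C2 was called in 16 of 20, with log2 fold changes from 1.01 to 1.42, and GH9B13 in 14 of 20, with 0.80 to 1.123, so the direction and much of the size stayed where the call was lost. With any 1 of the 5 arrays named next left out, the calls over all probe sets also dropped, to between 24 and 58, against 228 with all arrays. Without the calpain overexpressing array numbered 2 the adjusted p was 0.099 for GH9C2 and 0.115 for GH9B13, and leaving out number 3 gave 0.0662 and 0.0891. Among wild-type arrays, leaving out number 1 gave 0.0628 for GH9C2 and 0.0902 for GH9B13, and leaving out number 3 gave 0.065 and 0.0995. With wild-type array 2 left out, GH9B13 had an adjusted p = 0.0696, and with no filter on low signals it had 0.0554.

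The comparison of calpain overexpressing with calpain null leaves sets the transgenic lines side by side, both with the same T-DNA knock out. It uses the same 3 calpain overexpressing arrays as the comparison with wild type. GH9B8, GH9C2 and GH9B13 were called higher here, 3 of 6 genes tested, where 0.247% of all probe sets were called higher (35 of 14151). They were also the 3 genes whose calpain overexpressing arrays all lay above the calpain null arrays, as did 6.26% of all probe sets. None of the 6 genes was called lower, where 39 of 14151 probe sets were, so that count is near the background.

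GH9B8 had a log2 fold change of 1.65 (SE 0.24, interval 1.13 to 2.16, adjusted p = 0.0114 by limma). GH9C2 had 1.10 (SE 0.20, interval 0.67 to 1.54, adjusted p = 0.0357) and GH9B13 0.91 (SE 0.17, interval 0.53 to 1.29, adjusted p = 0.045). GH9B5 (0.33, interval -0.18 to 0.84), GH9B18 (0.22, interval -0.23 to 0.67) and GH9B7 (-0.01, interval -0.23 to 0.21) were not called, with adjusted p from 0.692 to 0.988. The median was 0.62 over the 6 genes and -0.01 over all probe sets tested.

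Fewer alternatives kept these calls than those against wild type, while the sizes stayed within 0.91 to 1.33 for GH9C2 and 0.74 to 1.06 for GH9B13 on the log2 scale. GH9B8 was called in 19 of 20 alternatives, with an adjusted p = 0.06 without the calpain null array numbered 3. GH9C2 and GH9B13 were each called in 10 of 20. Both missed the threshold without the calpain overexpressing array numbered 2 (adjusted p = 0.111 and 0.115) or 3 (0.129 and 0.16), the calpain null array numbered 1 (0.0708 and 0.0965) or 3 (0.15 and 0.179), and the wild-type array numbered 2 (0.0556 and 0.0793) or 3 (0.069 and 0.0917). GH9C2 also missed it without the calpain null array numbered 2 (0.0822) and GH9B13 without the wild-type array numbered 1 (0.0664).

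**Figure D3:**
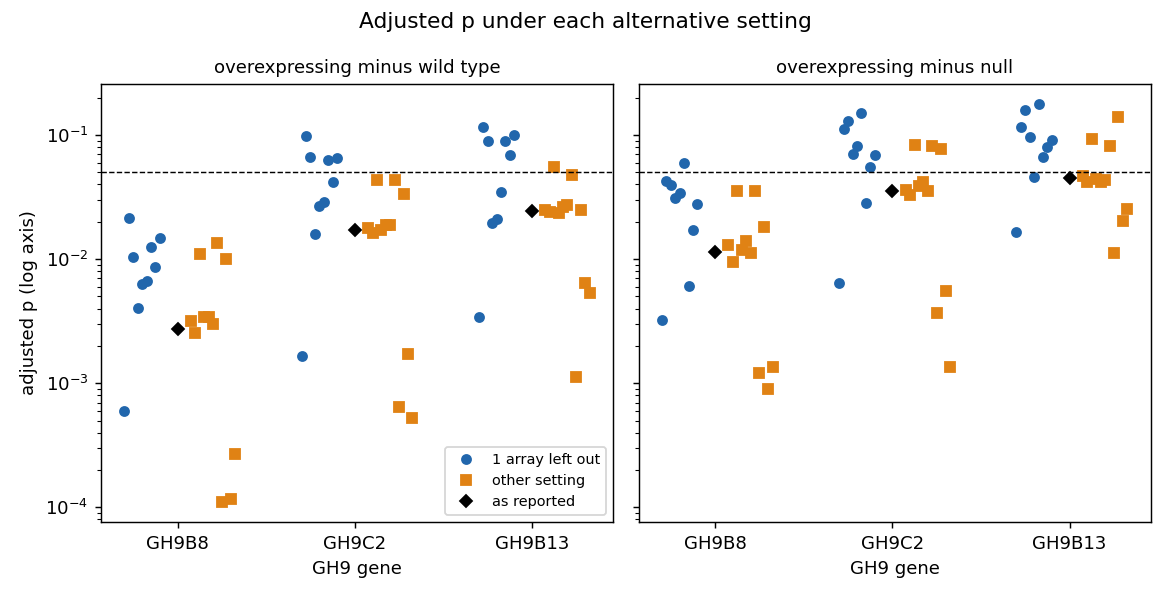
Adjusted p (log axis) of GH9B8, GH9C2 and GH9B13 as reported, with 1 array left out and under the other settings, for calpain overexpressing minus wild type (left) and minus calpain null (right), with the dashed line at 0.05. GH9B8 stays below the line in all but 1 setting, and several points of GH9C2 and GH9B13 lie above it.

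Calpain null leaves were set against the wild-type arrays already used above. None of the 6 GH9 genes was called higher, against 0.0495% of all probe sets (7 of 14151), and none was called lower. With 8 probe sets called in either direction, a count of 0 is near the background. None of the 6 had an unadjusted p under 0.05, as 17.4% of all probe sets did. None was called by limma in any alternative run, 20 for 5 of the genes and 19 for GH9B5, which was not tested at the stricter filter. No gene had all calpain null arrays above all wild-type arrays, as 13.0% of probe sets did. With 6 genes, counts of 0 are near the shares of 17.4% and 13.0% as well and do not set the GH9 genes apart.

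GH9B18 had the largest difference of the 6 in the calpain null line, a log2 fold change of 0.40 (interval -0.05 to 0.85, adjusted p = 0.342), and GH9B8 had 0.35 (interval -0.17 to 0.87, adjusted p = 0.461). GH9C2 (0.10, interval -0.34 to 0.53) and GH9B13 (0.06, interval -0.32 to 0.44) lay nearer to 0. GH9B5 had -0.13 (interval -0.65 to 0.38) and GH9B7 0.00 (interval -0.22 to 0.21). For GH9B8, GH9B18, GH9C2 and GH9B5 these intervals do not exclude a difference of over 0.5 on the log2 scale.

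**Figure D4:**
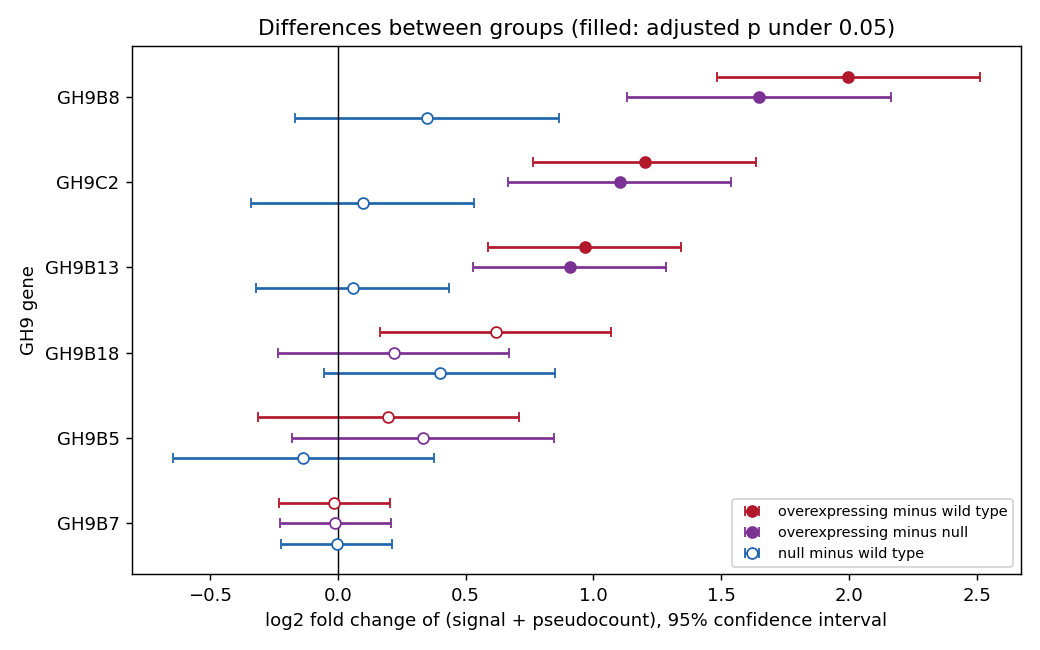
Log2 fold changes with 95% confidence intervals of the 6 GH9 genes in the 3 comparisons, filled where adjusted p was under 0.05. The intervals of GH9B8, GH9C2 and GH9B13 lie above 0 in both comparisons with the calpain overexpressing line and span 0 for calpain null minus wild type, and those of GH9B7 span 0 in all 3.

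Over the 3 groups at once, limma's F-test called 3 of 6 genes, where 1.16% of all probe sets were called. These were GH9B8 with an adjusted p = 0.00518, GH9C2 with 0.0245 and GH9B13 with 0.0302. GH9B18 (adjusted p = 0.217), GH9B5 (0.635) and GH9B7 (0.996) were not called. For the 3 called genes the order of group means was calpain overexpressing, calpain null, wild type, and the lower 2 groups overlapped.

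The sizes of the 3 rises were set side by side as a description, since the genes were taken because they rose and 3 arrays against 3 cannot reach a p under 0.05. The log2 values of GH9B8 minus those of GH9C2, each taken relative to its own wild-type mean, were 0.78, 0.75 and 0.86 on calpain overexpressing arrays, against -0.09, 0.06 and 0.03 on wild-type arrays. The groups did not overlap, and the mean difference was 0.80 against wild type and 0.54 against calpain null. For GH9B8 minus GH9B13 it was 1.03 and 0.74, with no overlap between groups, and for GH9C2 minus GH9B13 it was 0.23 and 0.20, with overlap. In 2-sided exact permutation tests of these 6 differences, the 4 that involve GH9B8 had p = 0.1 (0.15 after Benjamini-Hochberg adjustment), the smallest p this design allows, and the other 2 had p = 0.3, so none passed.

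Of the 6 GH9 genes tested, 4 were lowest on the calpain overexpressing array numbered 1 and highest on that numbered 3, the called genes GH9B8, GH9C2 and GH9B13 and also GH9B18, which was not called. Below the filter GH9B12 had this order, as did GH9A4 and GH9C1 at signals far under it. The same order held for 21.3% of all probe sets tested and for 67.5% of the 114 called higher against wild type, and 90.4% of those 114 were lowest on the array numbered 1. GH9B8, GH9C2 and GH9B13 were also lowest on the array numbered 1 among wild-type arrays, and GH9B8 and GH9B13 among calpain null arrays. The 25S rRNA control signal was 160, 242 and 257 on the calpain overexpressing arrays numbered 1, 2 and 3, 167, 344 and 384 on the calpain null arrays and 315, 247 and 208 on the wild-type arrays. On the first principal component, which held 40.01% of the variance, the scores were -9.37, 27.1 and 34.5 for calpain overexpressing, -9.62, 15.8 and 14.7 for calpain null and -33.2, -19.2 and -20.7 for wild-type arrays. The part of the array in the size of the GH9 differences was not tested beyond leaving arrays out. With the 3 arrays numbered 1 left out, the log2 fold changes against wild type were 1.99 for GH9B8, 1.23 for GH9C2 and 1.09 for GH9B13, and all 3 were called. That fit called 1914 probe sets in either direction, against 228 with all arrays, so calls were more frequent in general.

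The genes with the pattern most like each of the 4 genes GH9B8, GH9C2, GH9B13 and GH9B7 were found by the root mean square difference of log2 values over the 9 arrays, each gene centred on its own mean, among single-gene probe sets tested. For GH9C2 the 5 nearest were AT5G48900 (0.14), AT1G07440 (0.16), AT1G25530 (0.18), AT5G24580 (0.20) and GH9B13 (0.20). GH9B8 had its nearest genes farther off, AT4G38410, AT3G12710, GH9C2, AT1G07440 and AT1G25530, at 0.34 to 0.36. AT1G07440 and AT1G25530 were thus near both GH9C2 and GH9B8. GH9B13 was nearest to AT5G15740 (0.12), AT3G18280 (0.15), AT2G39130 (0.16), AT1G31850 (0.17) and AT3G59710 (0.17). Of these neighbours other than GH9 genes, AT1G07440 was called in both comparisons with the calpain overexpressing line, with a signal of 181 in calpain overexpressing, 64.1 in calpain null and 72.2 in wild-type leaves, and so was AT5G15740, with 153 in calpain overexpressing, 90.7 in calpain null and 86.1 in wild-type leaves. AT1G25530 and AT5G24580 were called against wild type (adjusted p = 0.0352 and 0.0499) and the other neighbours of these 3 genes were not called. GH9B7, with little spread on any array, lay within 0.04 to 0.05 of AT5G45410, AT1G52600, AT2G36160, AT4G12590 and AT3G12180, none of which was called.

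Other genes that act on wall glucans were covered unevenly. Of the cellulose synthesis list 1 gene was matched by symbol to a single-gene probe set, COB, which encodes COBRA, a protein that orients cellulose deposition. It had means of 671 ± 32.4 in calpain overexpressing, 585 ± 7.95 in calpain null and 612 ± 46.3 in wild-type leaves (SD, n = 3 each), with a log2 fold change against wild type of 0.13 (adjusted p = 0.476). Of 7 cellulose synthase-like genes tested, which make the backbones of other wall glycans, none was called in any comparison. At most 228 of 14151 probe sets were called in a comparison, so none among 7 genes is near the background. CSLA03 averaged 83.0 in calpain overexpressing, 100.3 in calpain null and 133 in wild-type leaves (log2 fold change against wild type -0.65, adjusted p = 0.0728). BGAL16, the only beta-galactosidase gene so matched, averaged 16.8 in calpain overexpressing, 21.8 in calpain null and 18.8 in wild-type leaves and was not called.

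The xyloglucan endotransglucosylase/hydrolases cut and rejoin the glycan that tethers microfibrils. Of 4 tested, 2 were called higher against wild type, XTH19 and XTH32, where 0.806% of all probe sets were. XTH19 passed the filter only through its calpain overexpressing arrays, the group where it is high. Its call, and a count that includes it, therefore cannot be read against that share. XTH19 averaged 212 ± 209 in calpain overexpressing leaves, 2.62 ± 1.66 in calpain null leaves and 2.37 ± 2.55 in wild-type leaves (SD, n = 3 each), so its calpain overexpressing arrays differed widely among themselves. With the other means below the added constant no fold of XTH19 is given, and because of the filter no p is given either. XTH32 had a log2 fold change of 0.53 (adjusted p = 0.0361 by limma). The other 2 had negative values that were not called, -0.57 for XTH16 (adjusted p = 0.0606) and -0.37 for XTH27, listed as EXGT-A3 (adjusted p = 0.141). The median over the 4 was 0.08. It includes XTH19 and therefore cannot be read against the 0.01 over all probe sets tested. Against calpain null only XTH19 of the 4 was called, with the same limit. Expansins loosen walls without hydrolysis. Of 9 tested, EXPA4 (log2 fold change 0.76, adjusted p = 0.0162 by limma) and EXPB3 (0.97, adjusted p = 0.0431) were called higher against wild type, where 0.806% of all probe sets were. Against calpain null no expansin was called. There 0.247% of all probe sets were called higher, so none among 9 is near the background, and EXPA4 had an adjusted p = 0.052 and EXPB3 an adjusted p = 0.0685. The median over the 9 expansins against wild type was 0.29, against 0.01 over all probe sets tested. None of these genes was called in calpain null against wild-type leaves, where 8 of 14151 probe sets were, so that too is near the background.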

How the data were processed

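RNA from 9 leaf samples was hybridised to 1 ATH1 array each. The deposited values are intensity signals from MAS5, run in GCOS per the submitters' processing notes. Their trimmed mean was equal on all arrays, so changes are relative to the rest of the array. Detection calls were not used here. Groups and replicate numbers came from the submitted labels, and no 2 arrays were identical. Of 9 same-numbered pairs of arrays, 3 had deviations from their group means that correlated over 0.1. These were 0.37 and 0.32 for calpain overexpressing array 1 with calpain null and wild-type array 1, and 0.17 for calpain overexpressing with wild-type array 3. The numbers only name samples and were not taken as pairs, so some shared structure by number may remain. A fit with a replicate block is among the alternatives.

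Signals were transformed as log2(signal + 3.63), the constant being the 20th percentile, and 64 control probe sets were left out. limma 3.58.1 in R 4.3.3 was fitted to all 9 arrays with a mean per group, an intensity trend and 6 residual degrees of freedom, and was tested on simulated data. Tests were 2-sided and p-values were adjusted over all 14151 probe sets. Plots used Python 3.11.15 and matplotlib 3.10.9.

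All GH9 genes, the genes most alike in pattern and up to 4 genes per list with the smallest p were to be named. The members, lists, tests and alternatives were chosen with earlier results of these data known. Lists were matched by symbol or synonym in the annotation and the TAIR10.1 RefSeq table; FDH was left out of the epidermal list because that symbol here belongs to formate dehydrogenase. Alternatives covered the constant, the filter, quantile normalization, median centring, the trend, array weights, fits of 2 groups, the replicate block, the arrays numbered 1 and each single array.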

Additional observations from a re-analysis of the deposited data

How the results depend on the processing

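The number of GH9 genes called stayed at 0 for calpain null minus wild type in all 20 alternatives. Over all probe sets these alternatives called from 1 to 1110, so 0 of 6 genes is near the background. With 1 array left out, the number of GH9 genes called ranged from 1 to 3 for calpain overexpressing minus wild type and from 0 to 3 for calpain overexpressing minus calpain null. For the F-test, whose alternatives were added after seeing the data, the number of GH9 genes called ranged from 1 to 3. For calpain overexpressing minus calpain null the number was 1 with no filter, with no intensity trend and in a fit of only the 2 groups, and GH9B8 was the gene called. The F-test called 1 with no filter and 1 with no intensity trend. Array weights added GH9B18 against wild type (log2 fold change 0.71, adjusted p = 0.0187 by limma). That fit called 2663 probe sets in this comparison, against 228 as reported, so the added call is not particular to GH9 genes. The replicate block, fitted although the numbers only name samples, left the counts of GH9 genes called at 3, 0 and 3, and over all probe sets raised those called to 770 for calpain overexpressing minus wild type, against 228 without the block. Over all alternatives that count ranged from 24 to 2663. The calls over all probe sets ranged from 22 to 351 for calpain overexpressing minus calpain null and from 35 to 2249 for the F-test.

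Signs turned only for differences that were not called. For calpain overexpressing minus wild type GH9B7 was 0.022 with quantile normalization and -0.082 to 0.033 with 1 array left out. For calpain null minus wild type GH9B7 was 0.028 with quantile normalization and -0.073 to 0.042 with 1 array left out, and for calpain overexpressing minus calpain null it was 0.0048 with median centring and -0.052 to 0.048 with 1 array left out. With the arrays numbered 1 left out, calpain null minus wild type was 0.019 for GH9B5 and -0.10 for GH9C2. With 1 array left out it was -0.098 to 0.21 for GH9C2 and -0.086 to 0.13 for GH9B13. The cause was not tested. The 3 arrays per group and signals near the filter limit what can be said of GH9B5, GH9B12 and GH9A3.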
